A study of Mus musculus with 10 samples.

Results

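The genes of the mouse mitochondrial genome (chromosome M) were examined in interscapular brown adipose tissue (iBAT), the fat depot between the shoulder blades that burns fuel for heat. The members were all genes that the GENCODE M21 annotation of the mouse genome build GRCm38 places on chromosome M, which are 37 genes: 13 protein-coding, 22 tRNA and 2 rRNA genes. Of these, 35 of the 41249 genes in the tables had counts to examine, namely all 13 protein-coding and all 22 tRNA genes. The rRNA genes mt-Rnr1 and mt-Rnr2 were not analysed here.

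RNA of the whole depot was sequenced from 10 male mice, 5 Axl KO and 5 WT, with 1 library per mouse. Axl KO mice lacked the receptor tyrosine kinase AXL constitutively and in the whole body, through a EUCOMM knockout-first cassette between exons 4 and 5 of Axl that was introduced with 2 ES cell clones, and WT mice were littermate controls, both on a C57Bl6 background. All mice of both groups were fed high-fat diet (HFD) at room temperature, per the labels for 24 weeks from an age of 6 to 8 weeks, so no mouse on chow and no mouse in the cold is in this comparison. Which clone each mouse came from is not given in the sources used here, and the loss of Axl was not limited to fat cells.

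The mitochondrial genome is a small circle kept in many copies per cell. It is transcribed from both strands as long precursors, and the tRNAs between the other genes are cut out to free the mRNAs. Its protein-coding genes encode core subunits of the respiratory chain and of ATP synthase, whereas all proteins that copy, transcribe and translate it are imported products of nuclear genes. In brown adipocytes the respiratory chain builds the proton gradient that uncoupling protein 1 (Ucp1) turns into heat.

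Total counts were between 5431014 and 8214841 in Axl KO mice and between 5952427 and 9580215 in WT mice. Axl, the targeted gene, fell from 43.1 ± 5.86 to 1.57 ± 0.646 CPM (TMM-normalized counts per 1000000 counts; SD, n = 5 mice each; log2 fold change −4.77, SE 0.20, edgeR adjusted p = 1.1e-07), with no overlap between the groups. All 9 brown adipocyte markers (Ucp1, Cidea, Cox8b, Dio2, Ppargc1a, Elovl3, Adipoq, Plin1 and Fabp4) were detected, and Ucp1 lay between 2990 and 7632 CPM. Fewer cells of a type and less RNA per cell cannot be told apart in RNA of a whole depot. The summed markers of skeletal muscle, the tissue next to the depot, lay between 7.06 and 3788 CPM in Axl KO mice (median 674) and between 887 and 4384 CPM in WT mice (median 3497), with all 13 muscle genes detected, and these values stand beside the results they touch.

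Parts of a stretch of chromosome M have near-identical copies in the nuclear genome. The genes inside this stretch are described apart from the others below, so its sequences are shown first. Its edges lie within genes that have 1 count each per mouse, so the counts cannot show a change at an edge. The transcripts of chromosome M were compared with all annotated transcripts, and 11 annotated copies of at least 95% identity over at least 200 bases were found for 9 members. Of these copies, 7 lie side by side on the reverse strand of chromosome 1 (chr1:24611535-24616197) in the same order as on chromosome M. From the first to the last of their matches lie 4653 bases of the mitochondrial genome, chrM:6390-11042, called the interval below. It runs from the last 483 bases of mt-Co1 to the first 876 bases of mt-Nd4. The bases between the matches, which include most of mt-Atp8 and of the tRNA genes there, had no such match on chromosome 1. All 7 are unprocessed pseudogenes, and none of the 11 copies is among the genes of the tables.

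Of the copies on chromosome 1, 5 were identical to the member over the whole match. These are Gm28661 over 681 bases of mt-Co2, Gm10925 over 678 bases of mt-Atp6, Gm28437 over 783 bases of mt-Co3, Gm10222 over 294 bases of mt-Nd4l and Gm28439 over 876 bases of mt-Nd4. The other 2 each differed at 1 base. Counted from 1 at the 5′ end of the gene, Gm28438 differed from mt-Nd3 over 345 bases by T3C, and Gm29216 differed from mt-Co1 over 483 bases by A1066T. The windows that hold these differences are printed here, and their capitals mark the only bases within the matches on chromosome 1 that differ from the members. Between the matches of mt-Nd3 and mt-Nd4l, positions on chromosome 1 shift by 1 base against chromosome M, in a stretch that was not compared.

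mt-Nd3, chrM:9459-9491, forward strand: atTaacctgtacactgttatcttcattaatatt
Gm28438, chr1:24613087-24613119, reverse strand: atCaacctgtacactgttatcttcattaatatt
mt-Co1, chrM:6390-6423, forward strand: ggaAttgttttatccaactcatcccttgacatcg
Gm29216, chr1:24616155-24616188, reverse strand: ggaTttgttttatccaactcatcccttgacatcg

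The other 4 annotated copies, on chromosomes 2 and 13, were 95.2 to 97.6% identical to mt-Nd2, mt-Co1, mt-Co2 and mt-Nd5. Of these, the copy of mt-Co2 (Gm13341, 95.9%) matches bases wholly inside the interval and that of mt-Co1 runs into it, so mt-Co2 has both an identical and a less alike copy. Gm13340 on chromosome 2 spans all 1545 bases of mt-Co1 and differed from it at 24 of the 1062 bases before the interval. The next window shows 61 bases of mt-Co1 with 4 of these differences in capitals, to set beside the windows from chromosome 1.

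mt-Co1, chrM:5786-5846, forward strand: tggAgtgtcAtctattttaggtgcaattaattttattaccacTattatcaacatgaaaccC
Gm13340, chr2:22589129-22589189, reverse strand: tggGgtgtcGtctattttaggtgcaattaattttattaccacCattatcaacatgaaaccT

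Counts were low for the members inside the interval. It holds 6 protein-coding genes (mt-Co2, mt-Atp8, mt-Atp6, mt-Co3, mt-Nd3 and mt-Nd4l) and 5 tRNA genes (mt-Ts1, mt-Td, mt-Tk, mt-Tg and mt-Tr) in full. Summed over the 10 mice, these 6 protein-coding genes had 19502 counts, against 6761305 for the 7 protein-coding genes that lie partly or wholly outside. Per kb of gene length, the mean level was between 0.145 CPM per kb for mt-Nd4l and 191.5 CPM per kb for mt-Co3 inside (median over genes 43.2), and between 748.5 CPM per kb for mt-Nd6 and 39710 CPM per kb for mt-Co1 among the other 7 (median 3063), so the ranges of gene means did not overlap. In each of the 10 mice, of either genotype, the highest protein-coding gene inside was below the lowest of the other 7 per kb, and the genes inside had 460 to 6473 counts per mouse. The split of genes by this interval was made after their values were seen and is a description. How the counting treated reads that match a member and a nuclear copy equally well is not given in the sources used here, and its part in these low counts was not tested.

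**Figure D1:**
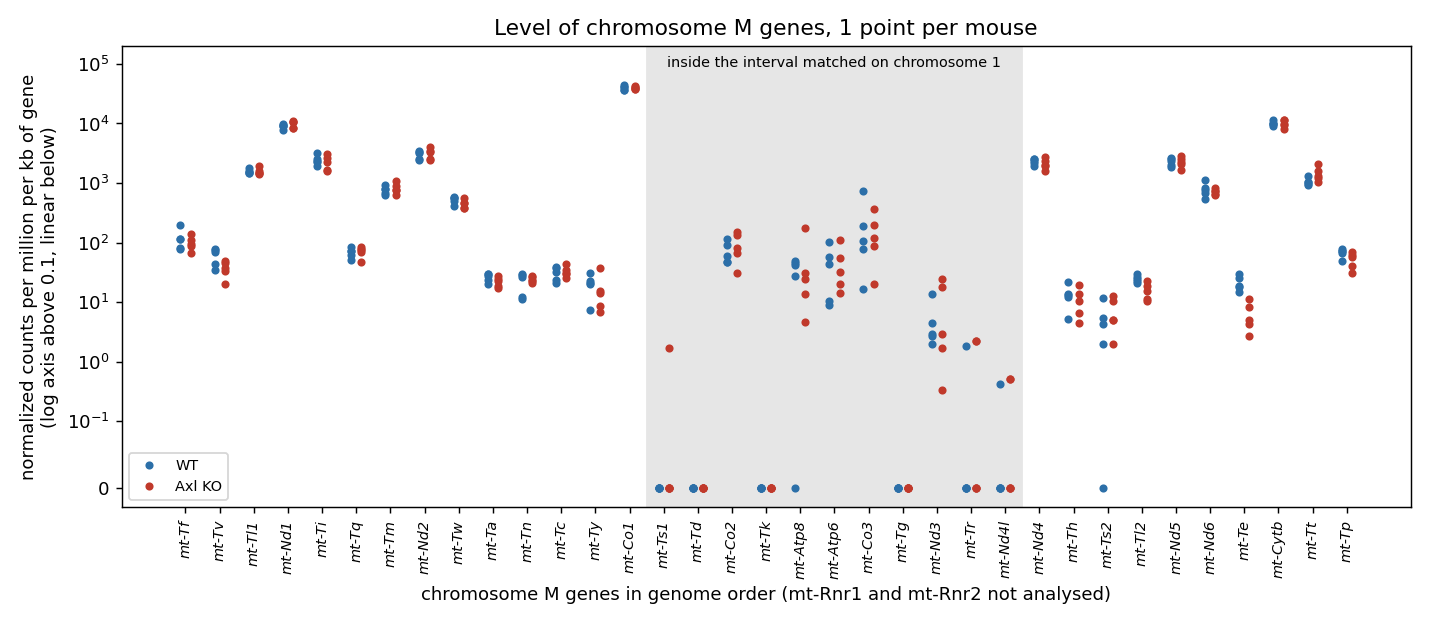
Level of each chromosome M gene in CPM per kb of gene, on a log axis that is linear below 0.1, with genes in genome order and 1 point per mouse (blue, WT; red, Axl KO). Within the shaded stretch, which holds the 11 genes inside the interval spanned by the matches on chromosome 1, no gene mean exceeds 191.5 CPM per kb, while mt-Co1 just before it stands at 39710 CPM per kb.

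The short genes inside the interval are shown in full, since their counts were the lowest. For mt-Nd4l, which encodes a small subunit of complex I, 1 count was found in each of Axl KO replicates 1 and 2 and WT replicate 5 and none in the other 7 mice, and the tRNA gene before it, mt-Tr, had the same counts in the same mice. The capitals in mt-Nd4l are the 7 bases it shares with mt-Nd4, and those in mt-Atp8 are the 43 bases it shares with mt-Atp6.

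mt-Nd4l, chrM:9877-10173, forward strand: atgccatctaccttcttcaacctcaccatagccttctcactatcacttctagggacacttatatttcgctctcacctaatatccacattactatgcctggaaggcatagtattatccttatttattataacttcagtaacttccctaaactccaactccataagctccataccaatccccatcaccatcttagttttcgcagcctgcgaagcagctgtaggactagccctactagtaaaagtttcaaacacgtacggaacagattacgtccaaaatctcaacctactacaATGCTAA
mt-Atp8, chrM:7766-7969, forward strand: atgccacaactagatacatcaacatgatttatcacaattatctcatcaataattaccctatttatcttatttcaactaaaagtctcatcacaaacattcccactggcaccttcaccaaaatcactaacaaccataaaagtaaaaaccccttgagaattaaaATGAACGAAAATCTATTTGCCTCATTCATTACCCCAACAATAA

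The match with Gm10222 covers mt-Nd4l but for its last 3 bases. For mt-Atp8 no copy of its own was found, but the 43 bases it shares with mt-Atp6 are within the match of Gm10925. The tRNA genes inside are 65 to 70 bases long, shorter than the 200 bases set as the minimum match, so the search could not find copies of them, and only their place in the interval is known. These tRNAs read, in genome order and 5′ to 3′ on their own strand, as follows, and mt-Ti and mt-Tt, of the 3 tRNA genes with the most counts, are printed after them as members outside.

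mt-Ts1, chrM:6870-6938, reverse strand: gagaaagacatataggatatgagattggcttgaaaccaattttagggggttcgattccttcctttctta
mt-Td, chrM:6942-7011, forward strand: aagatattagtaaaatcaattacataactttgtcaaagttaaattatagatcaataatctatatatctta
mt-Tk, chrM:7700-7764, forward strand: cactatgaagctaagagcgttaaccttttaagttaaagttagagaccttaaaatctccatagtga
mt-Tg, chrM:9391-9458, forward strand: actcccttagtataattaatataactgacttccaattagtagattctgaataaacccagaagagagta
mt-Tr, chrM:9808-9875, forward strand: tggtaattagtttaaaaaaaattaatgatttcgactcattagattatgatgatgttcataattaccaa
mt-Ti, chrM:3706-3774, forward strand: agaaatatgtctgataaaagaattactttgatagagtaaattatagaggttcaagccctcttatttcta
mt-Tt, chrM:15289-15355, forward strand: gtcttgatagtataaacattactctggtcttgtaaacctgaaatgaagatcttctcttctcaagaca

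The 5 tRNA genes inside had 4 counts in all over the 10 mice, 3 on mt-Tr and 1 on mt-Ts1. The tRNA genes for aspartate (mt-Td), lysine (mt-Tk) and glycine (mt-Tg) had 0 counts in all 10 mice. By contrast, the 17 tRNA genes outside had 34895 counts, and 16 of them were above 0 in every mouse.

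Together the chromosome M genes took a similar share of the counts in both genotypes. In Axl KO replicates 1 to 5 this share was 9.26, 9.45, 8.95, 9.82 and 9.30% of all counts, and in WT replicates 1 to 5 it was 8.30, 9.23, 10.6, 9.27 and 9.16%. The mean was 9.36 ± 0.313% in Axl KO and 9.32 ± 0.838% in WT mice (SD, n = 5 each), a difference of 0.036 percentage points. WT mice held both the lowest and the highest value, and the groups overlapped. Since the rRNA genes have no counts here, this share covers mRNA and tRNA genes only.

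**Figure D2:**
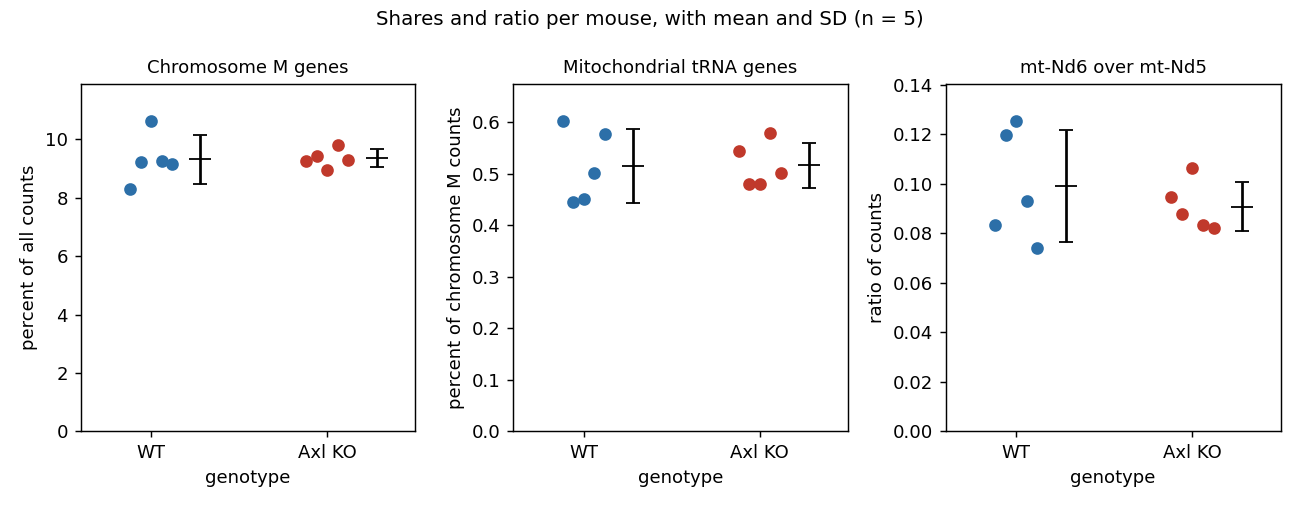
Chromosome M genes as percent of all counts (left), tRNA genes as percent of chromosome M counts (middle) and the ratio of mt-Nd6 to mt-Nd5 counts (right), each on an axis from 0, with 1 point per mouse and mean ± SD (n = 5) beside the points (blue, WT; red, Axl KO). In all 3 panels the Axl KO mice lie within the range of the WT mice, and the 5 WT mice spread from 8.30 to 10.6% in the left panel.

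Among the members, mt-Co1, which encodes the catalytic subunit of cytochrome c oxidase (complex IV), held most of the mitochondrial counts and had the highest count of the genes in the tables, which hold no rRNA genes, in 10 of 10 mice. It lies at chrM:5328-6872 (ENSMUSG00000064351). Counts of mt-Co1 were 394632, 436488, 510026, 427961 and 313795 in Axl KO replicates 1 to 5 and 415614, 596777, 585338, 360711 and 450602 in WT replicates 1 to 5. As a share of chromosome M counts it made up 65.7 ± 3.62% in Axl KO and 65.9 ± 1.63% in WT mice (SD, n = 5 each), a difference of −0.182 percentage points (two-sided exact permutation test, p = 0.96). The log2 fold change between the genotypes was 0.0048 with a standard error of 0.067 (edgeR adjusted p = 0.994), the smallest standard error of the members tested.

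The second gene by level was mt-Cytb, the cytochrome b subunit of complex III and the only member of that complex encoded here (chrM:14145-15288, ENSMUSG00000064370). Its counts were 73322, 72159, 80443, 90584 and 69812 in Axl KO and 75866, 107453, 114011, 68873 and 88840 in WT replicates 1 to 5. It made up 12.3 ± 1.19% of chromosome M counts in Axl KO and 12.4 ± 0.248% in WT mice (SD, n = 5 each; exact permutation p = 0.802). The WT mice lay closer together than the Axl KO mice in this share, and the WT range of 12.2 to 12.8% fell within the Axl KO range of 10.9 to 13.8%.

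The genes of complex I, NADH dehydrogenase, made up 18.4 to 23.6% of chromosome M counts per mouse, nearly all of it from mt-Nd1, mt-Nd2, mt-Nd4 and mt-Nd5. For mt-Nd1 (chrM:2751-3707, ENSMUSG00000064341), 64931, 52951, 69835, 69532 and 55312 counts were found in Axl KO and 55429, 81816, 77343, 53979 and 69487 in WT replicates 1 to 5. Its share of chromosome M counts was 9.94 ± 1.01% in Axl KO and 9.30 ± 0.490% in WT mice (SD, n = 5 each), a difference within the spread between mice (exact permutation p = 0.222). Axl KO replicate 2 had the lowest share of the 10 mice, at 8.44%, and Axl KO replicate 5 the highest, at 10.95%.

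For mt-Nd5 (chrM:11742-13565, ENSMUSG00000064367), the longest protein-coding gene of the genome, counts were 26256, 25260, 26131, 34966 and 24612 in Axl KO and 24748, 33989, 40738, 24448 and 37175 in WT replicates 1 to 5. For mt-Nd2 (chrM:3914-4951, ENSMUSG00000064345) they were 22398, 17538, 21374, 28342 and 18830 in Axl KO and 18224, 24715, 31397, 19396 and 27575 in WT replicates 1 to 5. Both complex I subunits overlapped between the genotypes, with log2 fold changes of 0.0034 (SE 0.14) for mt-Nd5 and 0.065 (SE 0.15) for mt-Nd2. For mt-Nd4 (chrM:10167-11544, ENSMUSG00000064363), which is partly inside the interval, counts were 17718, 17494, 18745, 26001 and 17023 in Axl KO and 21794, 24918, 30277, 18598 and 28025 in WT replicates 1 to 5. Its share of chromosome M counts was 3.08 ± 0.494% in Axl KO and 3.41 ± 0.405% in WT mice (SD, n = 5 each; exact permutation p = 0.254).

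The complex I gene mt-Nd6 (chrM:13552-14070, ENSMUSG00000064368) is the only protein-coding member read from the reverse strand, and it overlaps mt-Nd5 by 14 bases. Its counts were 2480, 2219, 2782, 2910 and 2019 in Axl KO and 2059, 4065, 5109, 2279 and 2756 in WT replicates 1 to 5. The ratio of mt-Nd6 to mt-Nd5 counts was used to compare the strands, and it was 0.0945, 0.0878, 0.106, 0.0832 and 0.0820 in Axl KO and 0.0832, 0.120, 0.125, 0.0932 and 0.0741 in WT replicates 1 to 5. The mean was 0.0908 ± 0.0100 in Axl KO and 0.0991 ± 0.0225 in WT mice (SD, n = 5 each), with a two-sided exact permutation p of 0.484. WT replicates 2 and 3 stood above the other 3 WT mice, and the groups overlapped. Against mt-Cytb in place of mt-Nd5 the log2 ratio of the group means was −0.118 in place of −0.126 (exact permutation p = 0.46). Since the strand setting of the counting is not given, reads from the 2 strands cannot be told apart here. The sources also differ on whether polyA or rRNA-depleted RNA was sequenced, and the part of this in the ratio was not tested.

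The shares of chromosome M counts were tested for the 15 members with a mean of at least 100 counts, and 0 of them had an exact p under 0.05 without adjustment. The lowest were 0.103 for mt-Tt and 0.119 for mt-Tw, tRNA genes for threonine and tryptophan. The smallest p that 5 against 5 mice can give is 0.00794.

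Levels were compared between genes per kb, for mt-Co1 and mt-Nd4 on the bases outside the interval alone, a scale chosen after the values were seen that credits all their counts to those bases. On that scale mt-Co1 reached 57770 CPM per kb, 5.71 times the 10120 CPM per kb of mt-Cytb, and it was higher in 10 of 10 mice. Next came mt-Nd1 with 9387 CPM per kb, below mt-Cytb in 8 of 10 mice and so not clearly apart from it. Then followed mt-Nd4 with 6050 CPM per kb and mt-Nd2 with 3063 CPM per kb, each step holding in 10 of 10 mice. Over the whole gene, however, mt-Nd4 was at 2204 CPM per kb, below mt-Nd2 in every mouse. The place of mt-Nd4 in this order therefore depends on the scale. Over its whole gene mt-Co1 was at 39710 CPM per kb, still the highest but by a smaller factor. The isoleucine tRNA gene mt-Ti, at 2341 CPM per kb, and mt-Nd5, at 2258 CPM per kb, did not differ beyond their spread, since mt-Ti was higher in 5 of 10 mice. However, mt-Ti is only 69 bases long and overlaps mt-Nd1 by 2 bases, and reads from precursors were not separated. These values therefore do not show that the tRNA and the mRNA were equally abundant. Of the protein-coding genes outside the interval mt-Nd6 was the lowest, at 748.5 CPM per kb.

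The protein-coding genes inside the interval differed from the others in how far mice of the same genotype lay apart. The coefficient of variation within genotypes was between 6.17% for mt-Co1 and 22.4% for mt-Nd6 among the 7 genes partly or wholly outside, and between 49.9% for mt-Co2 and 126% for mt-Atp8 among the 5 genes inside that passed the filter on low counts. Counting error would give a coefficient of 4.96% for mt-Co2 and 2.84% for mt-Co3, whose measured value was 118%. The highest mouse exceeded the lowest by 1.19 to 2.1 times among the former genes and by 4.93 to 74.3 times among the latter with no mouse at 0.

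For mt-Co3 (chrM:8607-9390, ENSMUSG00000064358), a subunit of complex IV, counts were 453, 107, 2450, 1055 and 493 in Axl KO and 96, 5454, 1299, 481 and 480 in WT replicates 1 to 5. WT replicate 2 stood far above the other WT mice and WT replicate 1 lowest of all. For mt-Co2 (chrM:7013-7696, ENSMUSG00000064354), which encodes the subunit of complex IV that takes electrons from cytochrome c, counts were 674, 364, 181, 641 and 240 in Axl KO and 304, 302, 668, 191 and 505 in WT replicates 1 to 5. The 2 mice with the highest counts of mt-Co3, WT replicate 2 and Axl KO replicate 3, had 302 and 181 counts of mt-Co2, and the latter is the lowest of all mice.

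The ATP synthase genes mt-Atp6 and mt-Atp8 overlap and encode subunits of its membrane part. For mt-Atp6 (chrM:7927-8607, ENSMUSG00000064357), counts were 140, 90, 83, 523 and 200 in Axl KO and 53, 648, 337, 35 and 238 in WT replicates 1 to 5. For mt-Atp8 (chrM:7766-7969, ENSMUSG00000064356), they were 18, 42, 8, 34 and 188 in Axl KO and 0, 54, 79, 50 and 79 in WT replicates 1 to 5. The groups overlapped for both genes, and the mouse with the highest count of mt-Atp8, Axl KO replicate 5, was in the middle for mt-Atp6. The remaining complex I gene inside, mt-Nd3 (chrM:9459-9806, ENSMUSG00000064360), had 40, 4, 1, 7 and 46 counts in Axl KO and 7, 15, 6, 28 and 8 in WT replicates 1 to 5, again with overlap, and mt-Nd4l (ENSMUSG00000065947) was at 0 or 1.

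**Figure D3:**
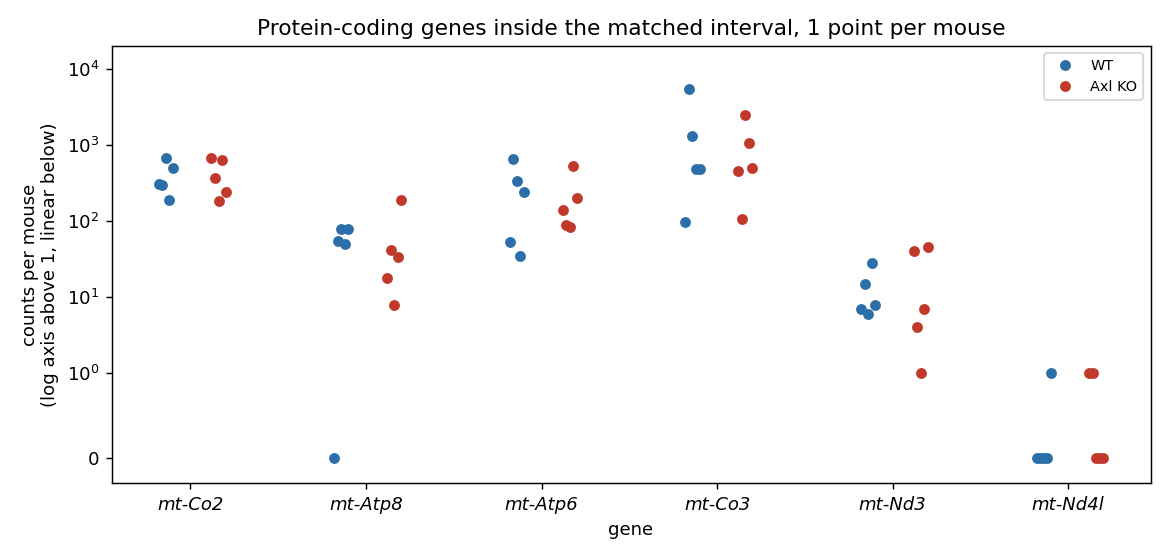
Counts per mouse of the 6 protein-coding genes inside the interval, on a log axis that is linear below 1 (blue, WT; red, Axl KO; 1 point per mouse). The genotypes overlap for every gene, and within a genotype the mice spread widely, as for mt-Co3 in WT mice, from 96 to 5454 counts.

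The tRNA genes made up 0.517 ± 0.0437% of chromosome M counts in Axl KO and 0.516 ± 0.0718% in WT mice (SD, n = 5 each), and the groups overlapped. Of the 34895 counts on the 17 tRNA genes outside the interval, 93.7% fell on only 5 genes: mt-Ti (isoleucine), mt-Tl1 (leucine), mt-Tt (threonine), mt-Tm (methionine) and mt-Tw (tryptophan), with mean levels from 32.7 to 161.5 CPM. Each of these adjoins or overlaps a protein-coding gene on its own strand with no base between, mt-Tl1 and mt-Ti on either side of mt-Nd1, mt-Tm and mt-Tw on either side of mt-Nd2, and mt-Tt after mt-Cytb. A further 2 tRNA genes outside adjoin such a gene, mt-Tl2 before mt-Nd5 and mt-Te beside mt-Nd6, and these had a mean of 1.45 and 0.957 CPM, so not every adjoining tRNA gene had a high count. The other 10 tRNA genes outside had means between 0.345 CPM for mt-Ts2 (serine) and 7.40 CPM for mt-Tf (phenylalanine). The 7 tRNA genes on the reverse strand held 3.49% of the tRNA counts outside. How many of these reads came from precursors that carry the next gene was not tested.

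Counts of mt-Ti were 1374, 1044, 997, 1268 and 583 in Axl KO and 1591, 1241, 1398, 1008 and 1213 in WT replicates 1 to 5. Those of mt-Tl1, whose gene follows the larger rRNA gene, were 705, 704, 960, 997 and 631 in Axl KO and 837, 1040, 1024, 646 and 1057 in WT replicates 1 to 5. Of all tRNA genes tested mt-Tl1 varied least between mice of 1 genotype, with a coefficient of variation of 11.1%, and its log2 fold change was 0.0086 (SE 0.089). Levels of mt-Tm were between 44.2 and 75.8 CPM in Axl KO and between 43.0 and 63.9 CPM in WT mice, and those of mt-Tw between 25.6 and 37.8 CPM in Axl KO and between 27.5 and 39.8 CPM in WT mice.

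Whether loss of Axl was accompanied by other levels of mitochondrial transcripts was tested in the fit over all 13739 genes with a mean above 1 CPM, by the quasi-likelihood test of edgeR, with p-values adjusted by the Benjamini-Hochberg method. Of the 35 members, 26 passed this filter (12 protein-coding and 14 tRNA genes). At an adjusted p under 0.05, 0 of the 26 were called, against 0.00728% of all genes tested, which was Axl alone. At an unadjusted p under 0.05 there were 3 of 26 members (11.5%), against 8.4% of all genes tested, so the share among the members was near the background. DESeq2 also called 0 members, with 2 at an unadjusted p under 0.05. Of the 26 members 14 were higher and 12 lower in Axl KO mice, and the median of their log2 fold changes was 0.0041 (−0.00059 over all genes tested), and 0 of them had groups without overlap, against 1.35% of all genes tested.

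The protein-coding genes partly or wholly outside the interval had fold changes close to 0. Their log2 fold changes were between −0.15 for mt-Nd6 (SE 0.16) and 0.11 for mt-Nd1 (SE 0.091), with standard errors from 0.067 to 0.16. Inside the interval the estimates ranged from −0.52 for mt-Co3 (SE 0.82) through 0.026 for mt-Atp6 (SE 0.64), 0.36 for mt-Co2 (SE 0.37) and 0.51 for mt-Atp8 (SE 0.82) to 0.87 for mt-Nd3 (SE 0.84), so the standard errors were all above those of the genes outside. Leaving out Axl KO replicate 5 turned mt-Atp8 to −0.87, and leaving out WT replicate 2 turned mt-Co3 to 0.69. The highest estimate, that of mt-Nd3, was 0.15 without Axl KO replicate 5, 0.45 without Axl KO replicate 1 and 1.5 without WT replicate 4. For mt-Co2 it was 0.11 without Axl KO replicate 1, 0.18 without Axl KO replicate 4, 0.23 without WT replicate 2, 0.59 without Axl KO replicate 3 and 0.58 without WT replicate 3.

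**Figure D4:**
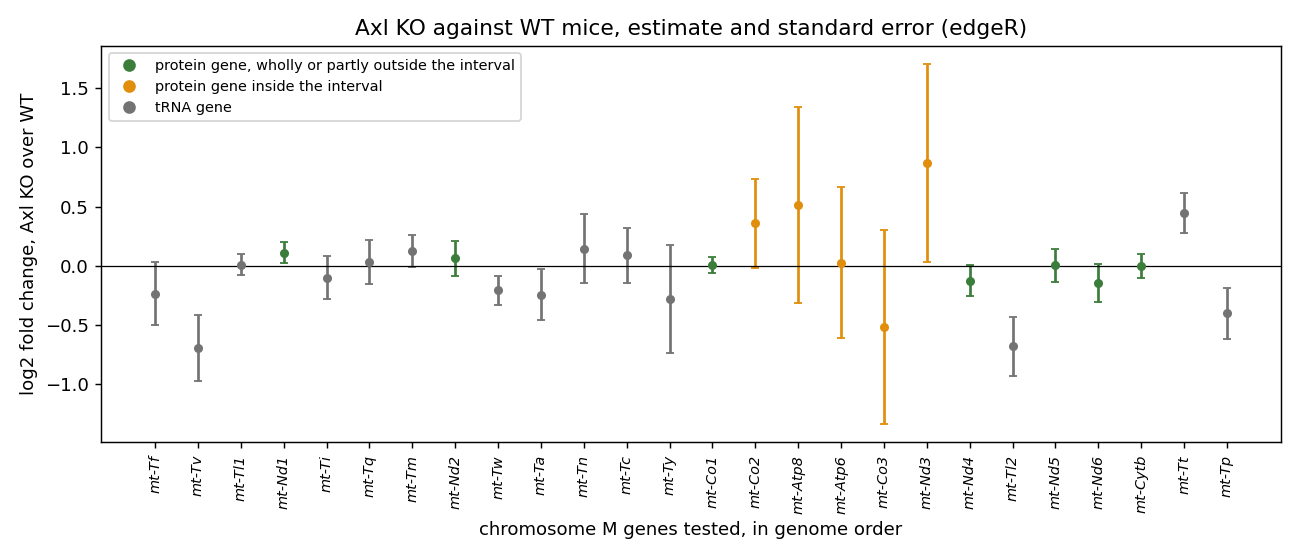
Log2 fold change of Axl KO over WT mice with its standard error (edgeR) for the 26 chromosome M genes that passed the filter, in genome order (green, protein-coding genes wholly or partly outside the interval; orange, protein-coding genes inside; grey, tRNA genes). The green points lie between −0.15 and 0.11 with short bars, the orange bars are all longer, and the lowest tRNA gene is mt-Tv at −0.69.

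The 3 members under the unadjusted threshold were all tRNA genes. The threonine tRNA gene mt-Tt had 69.0, 86.6, 80.8, 109 and 139 CPM in Axl KO and 64.7, 69.5, 61.4, 70.7 and 89.1 CPM in WT replicates 1 to 5. Its log2 fold change was 0.44 (SE 0.17, edgeR adjusted p = 0.571; exact permutation p = 0.0952 on the CPM), and Axl KO replicates 1, 2 and 3 lay within the WT range. The leucine tRNA gene mt-Tl2, at 5 to 17 counts per mouse, had 1.08, 0.751, 0.816, 1.60 and 1.32 CPM in Axl KO and 1.77, 1.59, 1.503, 1.89 and 2.14 CPM in WT replicates 1 to 5 (log2 fold change −0.68, SE 0.25, edgeR adjusted p = 0.571), and Axl KO replicate 4 lay within the WT range. The valine tRNA gene mt-Tv, which lies between the rRNA genes, had 1.39, 2.56, 3.15, 2.33 and 3.39 CPM in Axl KO and 3.00, 4.87, 5.20, 5.33 and 2.39 CPM in WT replicates 1 to 5 (log2 fold change −0.69, SE 0.28, edgeR adjusted p = 0.571; exact permutation p = 0.0873 on the CPM), and WT replicates 1 and 5 lay within the Axl KO range. None of the 3 passed the adjusted threshold. The other tRNA genes tested had log2 fold changes between −0.40 for mt-Tp (SE 0.22) and 0.15 for mt-Tn (SE 0.29).

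The glutamate tRNA gene mt-Te, with a mean of 0.957 CPM, lay just below the filter, and it was singled out after its values were seen. It had 5, 2, 3, 4 and 1 counts in Axl KO and 9, 12, 18, 6 and 14 counts in WT replicates 1 to 5, so every Axl KO mouse was below every WT mouse. Its level was 0.438 ± 0.235 CPM in Axl KO and 1.48 ± 0.433 CPM in WT mice (SD, n = 5 each), which gives the smallest exact permutation p that the design allows, 0.00794. Among the 32 members with at least 1 count, this exact p was under 0.05 for 2 (6.25%), mt-Te and mt-Tl2 (p = 0.0238), before any adjustment, against 5.74% of all 23725 genes with at least 1 count, so the share among the members was near the background. Groups without overlap were found for 0.923% of those 23725 genes. Fitted without a filter, mt-Te had a log2 fold change of −1.72 (edgeR adjusted p = 0.611 over 23725 genes, 6.49% of them under 0.05 before adjustment). Its neighbours differed less, with −0.15 for mt-Nd6 before it and −0.0017 for mt-Cytb after it.

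The nuclear genes that copy, transcribe, process and translate chromosome M were examined in a list of 90 genes, 89 of which passed the filter. None was called with edgeR or DESeq2 at an adjusted p under 0.05 (0 of 89 with edgeR), 7 had an unadjusted p under 0.05 (7.87%, against 8.4% of all genes tested), and 71 were higher and 18 lower in Axl KO mice. Their median log2 fold change was 0.085. Above 0 lay 49.8% of all genes tested. By role, the median was lowest for replication (0.012, 8 of 15 higher) and was 0.12 both for RNA processing, with 14 of 14 higher, and for translation, with 11 of 11 higher. The 9 brown adipocyte markers summed to between 14290 and 16500 CPM in WT mice and to between 15470 and 19940 CPM in Axl KO mice, and their part in these counts was not tested.

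Among the transcription genes, Tefm, the elongation factor of the mitochondrial RNA polymerase, was the highest. It had 18.5, 18.8, 17.5, 18.9 and 19.9 CPM in Axl KO and 15.97, 16.5, 13.3, 15.3 and 15.4 CPM in WT replicates 1 to 5, so the groups did not overlap. Tefm was the only 1 of the 89 genes without overlap, against 1.35% of all genes tested, so this is near the background. Its log2 fold change was 0.29 (SE 0.078, edgeR adjusted p = 0.571). Polrmt, the RNA polymerase itself, had a log2 fold change of 0.19 (SE 0.11), Tfam, which packages the DNA and opens its promoters, 0.087 (SE 0.070), and Tfb2m, the factor that melts the promoter, 0.033 (SE 0.093), none of which passed the test. Slirp, which holds mitochondrial mRNAs together with Lrpprc, was at 0.21 (SE 0.074, adjusted p = 0.571), whereas Lrpprc was at −0.0012 (SE 0.068). Of the other genes set to be named, Twnk was at 0.048 (SE 0.088), Polg at 0.012 (SE 0.056) and Supv3l1 at 0.013 (SE 0.055). Further, Pnpt1 was at 0.14 (SE 0.066), Fastk at 0.10 (SE 0.064) and Grsf1 at 0.068 (SE 0.066), and none of these was called. The extremes of the whole list were Cars2, the mitochondrial cysteinyl-tRNA synthetase, at 0.33 (SE 0.14) and Mterf1a, a termination factor with 1.91 ± 0.641 CPM in Axl KO and 2.53 ± 0.589 CPM in WT mice (SD, n = 5 each), at −0.42 (SE 0.27). Mterf1a has a near-identical gene, Mterf1b, so its counts are uncertain.

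The nuclear genes for subunits of the same complexes also had 0 calls with edgeR among 74 tested, with 14 at an unadjusted p under 0.05 (18.9%, against 8.4% of all genes tested) and 64 of 74 higher in Axl KO mice (median log2 fold change 0.080). The chromosome M protein-coding genes partly or wholly outside the interval had a median of 0.0034 over 7 genes. The 2 sets are unlike, since these 7 hold no ATP synthase gene and the nuclear genes hold 15. The highest per complex were Ndufa3 at 0.24 (SE 0.071) for complex I, Uqcr10 at 0.15 (SE 0.075) for complex III, Cox8b at 0.24 (SE 0.063) for complex IV and Atp5e at 0.17 (SE 0.066) for ATP synthase. The lowest were Ndufs1 at −0.039 (SE 0.057), Cyc1 at −0.048 (SE 0.057), Cox6a2 at −1.08 (SE 0.78) and Atp5g1 at −0.68 (SE 0.42). Cox6a2 encodes the form of its subunit found in muscle, and it had 6.17 ± 8.28 CPM in Axl KO and 12.8 ± 7.69 CPM in WT mice (SD, n = 5 each). The muscle markers given above were also lower at the median in Axl KO mice, and their part in this value was not tested.

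**Figure D5:**
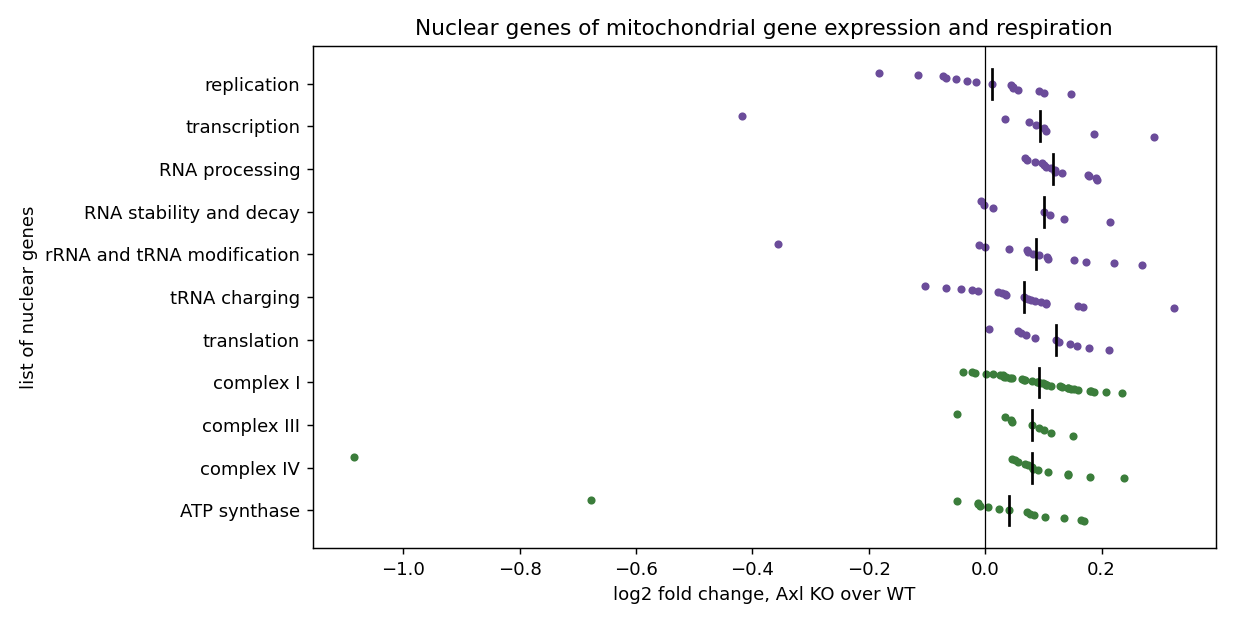
Log2 fold change of Axl KO over WT mice for nuclear genes of mitochondrial gene expression (purple) and of the respiratory complexes (green), 1 point per gene by list, with a bar at each list's median. All points of RNA processing and translation lie above 0, the medians lie between 0.012 and 0.12, and Cox6a2 at −1.08 lies farthest to the left.

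Across the 10 mice, 3 relations of mt-Co1 (CPM of the counts on nuclear genes) were computed, and none held. With the mean log2 level of nuclear complex IV genes Pearson's r was 0.055 (permutation p = 0.848, adjusted p = 0.856) and Spearman's rho −0.19 (permutation p = 0.604, adjusted p = 0.733), with r at −0.40 without the 2 mice farthest from the median of the nuclear genes, −0.77 within Axl KO and 0.57 within WT mice. With Ucp1, r was −0.33 (permutation p = 0.331, adjusted p = 0.856) and rho −0.13 (permutation p = 0.733, adjusted p = 0.733), and r turned to 0.72 without 2 mice and was −0.72 within Axl KO and −0.32 within WT mice. With the summed muscle markers, r was 0.062 (permutation p = 0.856, adjusted p = 0.856) and rho −0.15 (permutation p = 0.681, adjusted p = 0.733), with −0.58 without 2 mice, −0.69 within Axl KO and 0.43 within WT mice. The values within a genotype rest on 5 mice each and have no test, and the mice of all 3 relations share their libraries.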

How the data were processed

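The authors deposited 1 table per mouse of raw counts per Ensembl gene, without normalization or pooling. The paper's methods name rRNA-depleted RNA and hisat2 on GRCm38, whereas the labels name polyA RNA and TruSeq libraries and the submitters' processing notes name Trimmomatic 0.36, STAR 2.6.1c and GRCm38.p5. The counting tool, strand setting and treatment of multiply matching reads are not given in the sources used here. The tables hold 0 of 354 annotated rRNA genes and 8 of 2642 unprocessed pseudogenes.

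Counts were fitted in R 4.3.3 with edgeR 4.0.16 (TMM, quasi-likelihood test, no covariate, Benjamini-Hochberg adjustment) over genes with a mean above 1 CPM, and the procedure was tested on simulated data. CPM are TMM-normalized. For single values two-sided exact permutation tests were run, with 100000 permutations for correlations. Copies were found with BLAST 2.17.0 among GENCODE M21 transcripts, the source of all sequences; no genome sequence was searched. Alternatives were DESeq2 1.42.0, other scalings and filters, a robust fit, a replicate block and each mouse left out. No 2 mice agreed within sampling noise (lowest chi-square per gene 5.04), and which mice share a litter or batch is not given in the sources used here. The p-values of the group comparisons set the difference between genotypes against the spread between these mice. A litter or batch difference between the groups could not be told apart from genotype.

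The members and gene lists were chosen with earlier results of these data known. Genes named are Axl, all members, copies of members, the brown adipocyte markers, 12 nuclear genes of mitochondrial gene expression and the extremes of each list. Mterf1b is named for its likeness to Mterf1a. Any other name is said in the text to be a later choice. Sums over members have no p.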

Additional observations from a re-analysis of the deposited data

Results flagged for a closer look

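In 58 groups of 5 mice (29 members or shares in each genotype), the highest and lowest mouse were compared with the others, and in 4 a mouse stood apart by a gap of more than 0.71 of the group's range. The gap was set for about 1 such group in 20, which is about 2.9 of the 58. Whether that rate holds for low counts, in groups that share their mice, was not tested. Of the 4 groups, 3 were genes inside the interval spanned by the matches on chromosome 1. For mt-Atp8, Axl KO replicate 5 had 35.4 CPM against 6.31 CPM in the next Axl KO mouse. For mt-Co3, WT replicate 2 had 577 CPM against 150 CPM in the next WT mouse. For mt-Nd3, WT replicate 4 had 4.81 CPM against 1.59 CPM in the next WT mouse. The remaining gene was the tyrosine tRNA gene mt-Ty, for which Axl KO replicate 2 had 2.56 CPM against 1.02 CPM in the next Axl KO mouse, at 3 to 17 counts per mouse. The 4 values came from 4 different mice.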

How the results depend on the processing

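Across 7 other fits (DESeq2, RLE size factors, scaling on nuclear genes, filterByExpr, no filter, a robust fit and the replicate block) and 10 fits that each left out 1 mouse, 0 members were called. Of 440 log2 fold changes, 404 kept their direction and 36 did not, over 14 of 26 members. The lowest adjusted p of a member, 0.131, was that of mt-Te (log2 fold change −1.63) without Axl KO replicate 3, where it passed the filter; its other values were 0.58 to 0.646. DESeq2 called 9 genes in all, against 1 with edgeR. Same-numbered mice had correlations of −0.356 to 0.371, and 1 of 5 Axl KO mice was best matched by its own number. These values gave no sign that the numbers pair the mice, but so few pairs cannot settle it. With the replicate block mt-Co3 was at 0.38 and mt-Nd5 at −0.0038, and no other member turned. On all counts the r of mt-Co1 with complex IV genes was −0.0452. On bases outside the interval mt-Co1 was at 57770 and mt-Nd4 at 6050 CPM per kb. On these bases mt-Nd4 stood above mt-Nd2, whereas over whole genes mt-Nd4 stood below mt-Nd2 in every mouse.

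Leaving out each mouse in turn gave these log2 ranges: mt-Tf −0.41 to 0.039, mt-Tl1 −0.077 to 0.058, mt-Ti −0.24 to 0.012, mt-Tq −0.048 to 0.16, mt-Nd2 −0.035 to 0.15, mt-Tn −0.029 to 0.30, mt-Tc −0.031 to 0.19, mt-Co1 −0.022 to 0.043, mt-Atp8 −0.87 to 0.84, mt-Atp6 −0.62 to 0.58, mt-Co3 −1.1 to 0.69, mt-Nd5 −0.083 to 0.094, mt-Nd6 −0.25 to 0.025 and mt-Cytb −0.053 to 0.065. The difference in the chromosome M share ranged from −0.219 to 0.366 percentage points, that in the tRNA share from −0.0161 to 0.0231 and the log2 ratio of mt-Nd6 to mt-Nd5 from −0.214 to −0.0273. The number of shares with an exact p under 0.05 ranged from 0 to 1: mt-Tt without Axl KO replicate 1 or WT replicate 5, mt-Nd1 without Axl KO replicate 2 and mt-Tw without WT replicate 2. The causes were not tested.

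The rRNA share and counts with the nuclear copies added were not run, since those genes have no counts here. At most 20 counts in any mouse limit 7 of the 12 tRNA genes outside the interval and below the 5 most abundant.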
